A study of Mus musculus with 16 samples.

Results

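The 46 genes described here code for the enzymes that carry glucose carbon from glucose 6-phosphate to pyruvate, that turn pyruvate into lactate, acetyl-CoA or oxaloacetate, and that run the tricarboxylic acid (TCA) cycle with its malate, aspartate and glycerol phosphate shuttles. They were taken by name from a list of 47 symbols, and the rule used no measured value, though the list was drawn up with earlier results of these data known. Of the 47, 46 were in the gene tables; pyruvate kinase M was listed there as Pkm2 and not as Pkm. All 46 passed the filter on low counts, which left 10822 of 23329 genes for testing. Roles divide them into 7 genes of upper glycolysis, 7 of lower glycolysis, 3 of lactate formation and transport, 7 of pyruvate entry, 15 of the TCA cycle, 2 NADP-linked isocitrate dehydrogenases and 5 of the shuttles and glutamate metabolism.

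RNA was sequenced from BetaTC6, an insulin-secreting line derived from a mouse insulinoma on a C57BL/6 background. There were 4 groups of 4 libraries: wild-type cells given DMSO, the solvent used as vehicle; wild-type cells given ivermectin; cells labelled as a knockout of P2ry1, a purinergic receptor gene, given DMSO; and the knockout-labelled cells given ivermectin. Every group was starved of glucose in buffer and then held in 20 mM glucose for 30 min, so all 16 libraries come from glucose-stimulated cells; cells in low glucose were not analysed here. Each genotype is 1 line, and whether the knockout is a single clone was not given in the sources used here, so the deletion and any other difference between the lines cannot be told apart. Nothing in the labels says that the 4 libraries of a group came from separate cultures, and p-values then measure only the spread between these libraries.

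Pancreatic beta cells use glycolysis as a glucose sensor: the rate of glucose breakdown sets the ATP level that closes potassium channels and starts insulin release. In normal beta cells pyruvate is directed into mitochondria, through pyruvate dehydrogenase to acetyl-CoA and through pyruvate carboxylase to oxaloacetate. Lactate dehydrogenase A and the plasma membrane monocarboxylate transporter MCT1 are kept low in them, and NADH made in the cytosol is re-oxidised mainly by the mitochondrial shuttles.

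Library totals ran from 893288 to 2013475 counts, and the wild-type vehicle libraries were the smallest, at 893288 to 1065003. The listed beta cell markers summed to 39478 to 50869 CPM, counts scaled to the TMM-adjusted library total, across all 16 libraries, while acinar markers did not exceed 3.06 CPM in any library. Single markers differed between the lines: 8 of 22 beta cell genes passed in vehicle (36.4%; 3 higher and 5 lower in knockout cells) and 11 of 22 under ivermectin (50%; 3 higher and 8 lower), where 20.7% and 27.8% of all genes did. Of the other islet hormones, Sst averaged 218 and 15.4 CPM in wild-type and knockout vehicle libraries (-3.80, edgeR adjusted p = 2.65e-23) and Gcg 297 and 216 CPM (-0.46, adjusted p = 9.71e-06), and the ductal gene Spp1 11.3 and 3.22 CPM (-1.80, adjusted p = 0.00194); all 3 were also lower in knockout cells under ivermectin. Skeletal muscle and fibroblast lists averaged 31.1 and 9.95 CPM in wild-type vehicle libraries and at most 16.5 and 5.02 CPM in the other groups. Genes of the fibroblast list moved both ways on few counts. In wild-type and knockout vehicle libraries Col1a1 averaged 0.75 and 4.75 counts, and Dcn 2.5 and 0.5 counts. The part of these markers in the results below was not tested. A list of 33 hepatocyte genes, all in the table, summed to 1679 to 3578 CPM in wild-type vehicle libraries against 956 to 1203 CPM in wild-type cells with ivermectin and 918 to 1224 and 1051 to 1379 CPM in knockout cells without and with it; none of the 33 was at 0 throughout a group. Alb, the defining gene of that list, was at 328 to 923 CPM in wild-type vehicle libraries and at most 172 CPM in any other. Ttr held the most counts of the list in every group. In the same order of groups it averaged 586, 1003, 1600 and 1464 counts, against 562, 173.5, 72.75 and 118 for Alb. The sums therefore understate how far most of the list differed. Of 31 tested genes of the list, 30 were called lower and 1 higher in knockout than in wild-type vehicle libraries (median log2 difference -3.58). P2ry1 averaged 94.6 and 84.0 CPM in wild-type and knockout-labelled vehicle libraries (edgeR quasi-likelihood test, adjusted p = 0.246) and 93.1 and 85.5 CPM under ivermectin (adjusted p = 0.394), so its transcript level did not separate the labels. Which part of the gene was edited is not given in the sources used here, and the cells are called knockout below by their label alone. The fourth wild-type ivermectin library stood apart from its group, with a chi-square per degree of freedom of 5.05 to 6.81 against the others of its group where every other pair of replicates lay between 1.17 and 2.18. It held 40646 counts of Rn45s, the ribosomal RNA precursor gene, where the other 3 libraries of its group held 2148 to 3030.

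The 150 bases before the outermost RefSeq start are shown for 4 genes of the lactate and pyruvate branch: Ldha and Pdk1, the only members lower in knockout cells past the threshold used below, and Slc16a1 and Pcx, which passed in no comparison and belong with Ldha to the beta cell trait above. They are on the plus strand of GRCm38.p6: Ldha at chr7:46845654-46845803, Slc16a1 at chr3:104638514-104638663, Pcx at chr19:4510322-4510471 and Pdk1 at chr2:71873074-71873223. Capitals mark ACGTG on either strand, a match on the other strand reading CACGT as printed, the core that hypoxia-inducible factor and related E-box proteins can recognise; a palindromic CACGTG is marked as 1 place.
Ldha: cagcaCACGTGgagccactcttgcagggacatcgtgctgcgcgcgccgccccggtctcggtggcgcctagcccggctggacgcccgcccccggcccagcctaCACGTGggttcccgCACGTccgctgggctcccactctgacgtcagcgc
Slc16a1: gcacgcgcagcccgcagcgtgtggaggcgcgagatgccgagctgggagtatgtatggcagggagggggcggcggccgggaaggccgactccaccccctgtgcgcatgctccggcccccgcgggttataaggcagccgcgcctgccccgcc
Pcx: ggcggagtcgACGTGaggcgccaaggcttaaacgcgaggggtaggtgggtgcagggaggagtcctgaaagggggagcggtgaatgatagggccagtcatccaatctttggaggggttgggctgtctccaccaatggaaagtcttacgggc
Pdk1: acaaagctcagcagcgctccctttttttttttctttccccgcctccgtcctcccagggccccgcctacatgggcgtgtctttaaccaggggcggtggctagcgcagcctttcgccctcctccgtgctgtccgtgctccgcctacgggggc
Ldha has ACGTG at 3 places in these bases and Pcx at 1, while the Slc16a1 and Pdk1 windows have none. The related core GCGTG, also on either strand, is at 2 places in the Slc16a1 window and at 1 in that of Pdk1. Over the 250 bases before the same starts ACGTG is at 3 places for Ldha, 2 for Pcx, 1 for Slc16a1 and none for Pdk1. Over the 250 bases before each start, with 44 of the 46 genes matched in 64 windows, ACGTG was in 34.4% of the windows of the set against 16.6% of all 32851 windows and 17.8% of the 21263 windows of protein-coding genes. GCGTG was in 53.1% against 28.2% and 33.8%, and CACGTG, which contains ACGTG, in 10.9% against 6.02% and 6.63%. Windows of 1 gene can overlap: Ogdh alone has 6, of which 6 hold ACGTG and 3 CACGTG, and without them the shares of the set were 27.6% for ACGTG, 51.7% for GCGTG and 6.9% for CACGTG. Counted once per gene, ACGTG was in a window of 15 of 44 members (34.1%, against 18.5% of all genes and 20% of protein-coding genes), GCGTG of 27 (61.4%, against 30.9% and 36.7%) and CACGTG of 5 (11.4%, against 6.86% and 7.61%). Each of these words contains the pair CG, and the windows compared were not matched to the set for base composition or expression. A match describes letters and is not a binding site, and no binding was measured here.

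Levels between genes are compared in TPM, a share of all transcripts that corrects for transcript length. Together the 46 genes made up 0.818% and 0.805% of all transcripts in wild-type cells without and with ivermectin and 0.822% and 0.801% in knockout cells. Values for the 4 groups are given below in that order. Gapdh, the dehydrogenase at the entry to lower glycolysis, and Pkm2, which makes pyruvate, were the most abundant members, at a mean of 858 and 853 TPM over the 16 libraries. Mitochondrial malate dehydrogenase Mdh2 (589 TPM) and its cytosolic partner Mdh1 (475 TPM) followed, ahead of Pgk1 (460 TPM) and Aldoa (442 TPM). The least abundant was the liver-type pyruvate kinase Pklr at 4.30 TPM, next to the brain-type aldolase Aldoc at 6.20 TPM.

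The 3 genes of the beta cell trait lay in the lower part of this order. Pcx, pyruvate carboxylase, averaged 78.6 TPM and was 27th of the 46. Ldha, which reduces pyruvate to lactate, averaged 51.8 TPM and was 34th, and Slc16a1, which codes for MCT1, averaged 6.72 TPM and was 44th. Pcx thus exceeded Slc16a1 by 12.0-fold on average, with a range of 8.86 to 21.8 over the 16 libraries. Slc16a3, a gene outside the set that codes for the monocarboxylate transporter MCT4 and is named here after its values were seen, had group means of 14.7, 12.5, 9.94 and 9.06 TPM against 6.37, 6.35, 7.20 and 6.97 TPM for Slc16a1. Pcx exceeded Ldha by less than it exceeded Slc16a1. The TPM ratio of Pcx to Ldha was 1.26 ± 0.287 (SD, n = 4) and 1.39 ± 0.134 in wild-type cells, without and with ivermectin, and 1.95 ± 0.182 and 2.15 ± 0.817 in knockout cells. In the first wild-type vehicle library Ldha was the higher, at a ratio of 0.886. Gapdh exceeded Ldha by 13.0-, 14.9-, 22.1- and 24.6-fold in the same order of groups.

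**Figure D1:**
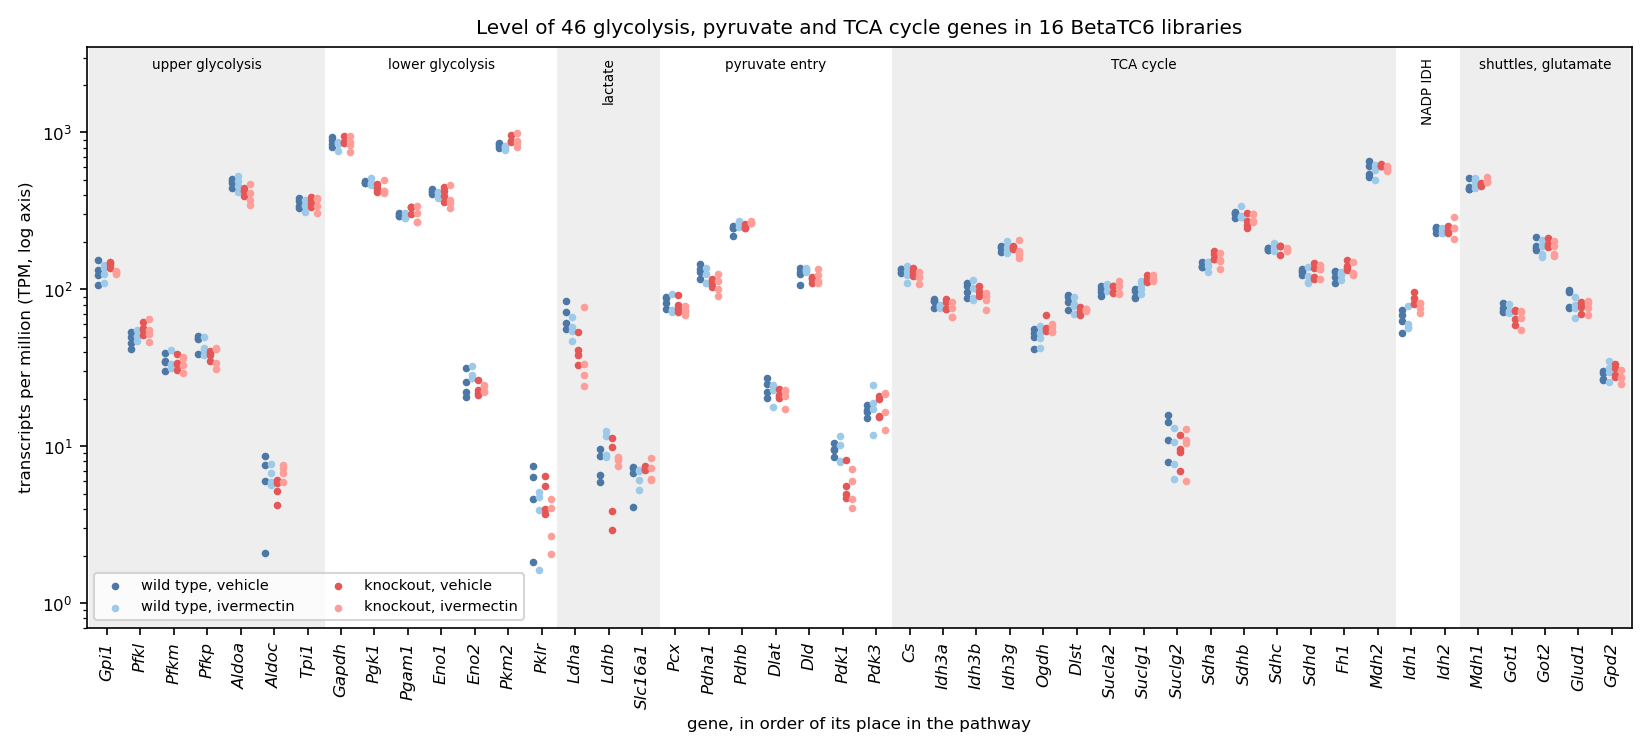
Level of each of the 46 genes in TPM (log axis) in the 16 libraries, grouped by role. Gapdh and Pkm2 stand highest with means of 858 and 853 TPM, Pcx averages 78.6, Ldha 51.8 and Slc16a1 6.72 TPM.

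Where several genes code for one step, a single isozyme usually dominated. Pkm2 made up 99.4% of pyruvate kinase TPM in wild-type vehicle libraries and Aldoa 98.8% of the summed TPM of Aldoa and Aldoc. Ldha made up 89.5%, 84.4%, 85.7% and 80.7% of the lactate dehydrogenase TPM in the 4 groups, the rest being Ldhb. Phosphofructokinase, the committed step of glycolysis, was shared among all 3 genes. Its liver-type gene Pfkl held 36.9%, 39.8%, 43.7% and 43.3% of the family's TPM in the 4 groups, and the platelet-type Pfkp 36.1%, 33.4%, 29.8% and 29.6%. The lowest knockout library, at 41.0% for Pfkl, was within the range of the wild-type ivermectin libraries, which reached 41.1%. Enolase is less certain: the annotated copy Gm5506, nearly identical to Eno1, held 20.5% of enolase TPM in wild-type vehicle libraries, and reads of the pair may be split between them.

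Ivermectin for 30 min moved none of the 46 genes past the threshold in either line, a Benjamini-Hochberg adjusted p of 0.05 in the edgeR quasi-likelihood test. In wild-type cells 0 of 46 passed, where 0.61% of all genes tested did (0.0554% higher and 0.554% lower). The members' log2 differences ran from -0.40 to 0.45 with a median of 0.01, the smallest adjusted p was 0.980, and 0 members had an unadjusted p under 0.05; DESeq2 also called 0. In knockout cells 0 of 46 passed, where 0% of all genes did. Here the log2 differences ran from -0.48 to 0.43 with a median of 0.04, and 3 members had an unadjusted p under 0.05: Mdh1 (0.16), the E1 beta subunit gene Pdhb of pyruvate dehydrogenase (0.16) and mitochondrial Idh2 (0.14), all with positive log2 differences and adjusted p of 0.595 to 0.642; DESeq2 again called 0. By TMM scaling 25 and 30 of the 46 log2 differences were positive in wild-type and knockout cells. On log2(TPM + 1) values 19 and 13 were, where the median of all genes tested moved to -0.02 and -0.07.

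In wild-type cells the 2 highest and 2 lowest log2 differences under ivermectin were those of Ldhb at 0.45 (95% interval -0.32 to 1.22) and Eno2, the neuronal enolase, at 0.22, against Pklr at -0.40 and Suclg2, the GTP-linked succinyl-CoA ligase subunit, at -0.34. In knockout cells they were Aldoc at 0.43 (95% interval -0.16 to 1.02) and Ldhb at 0.29, against Pklr at -0.48 and Idh3b, a subunit of the NAD-linked isocitrate dehydrogenase, at -0.09. Pklr had between 3 and 20 counts in a library, Ldhb between 4 and 17 and Aldoc between 2 and 14. For well-measured members the intervals were narrow: the 95% interval for Pkm2 was -0.13 to 0.07 in wild-type and -0.05 to 0.14 in knockout cells, and that for Pcx was -0.23 to 0.09 and -0.18 to 0.10. Changes in Ldha were not resolved as finely, with intervals of -0.64 to 0.18 and -0.35 to 0.46.

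**Figure D2:**
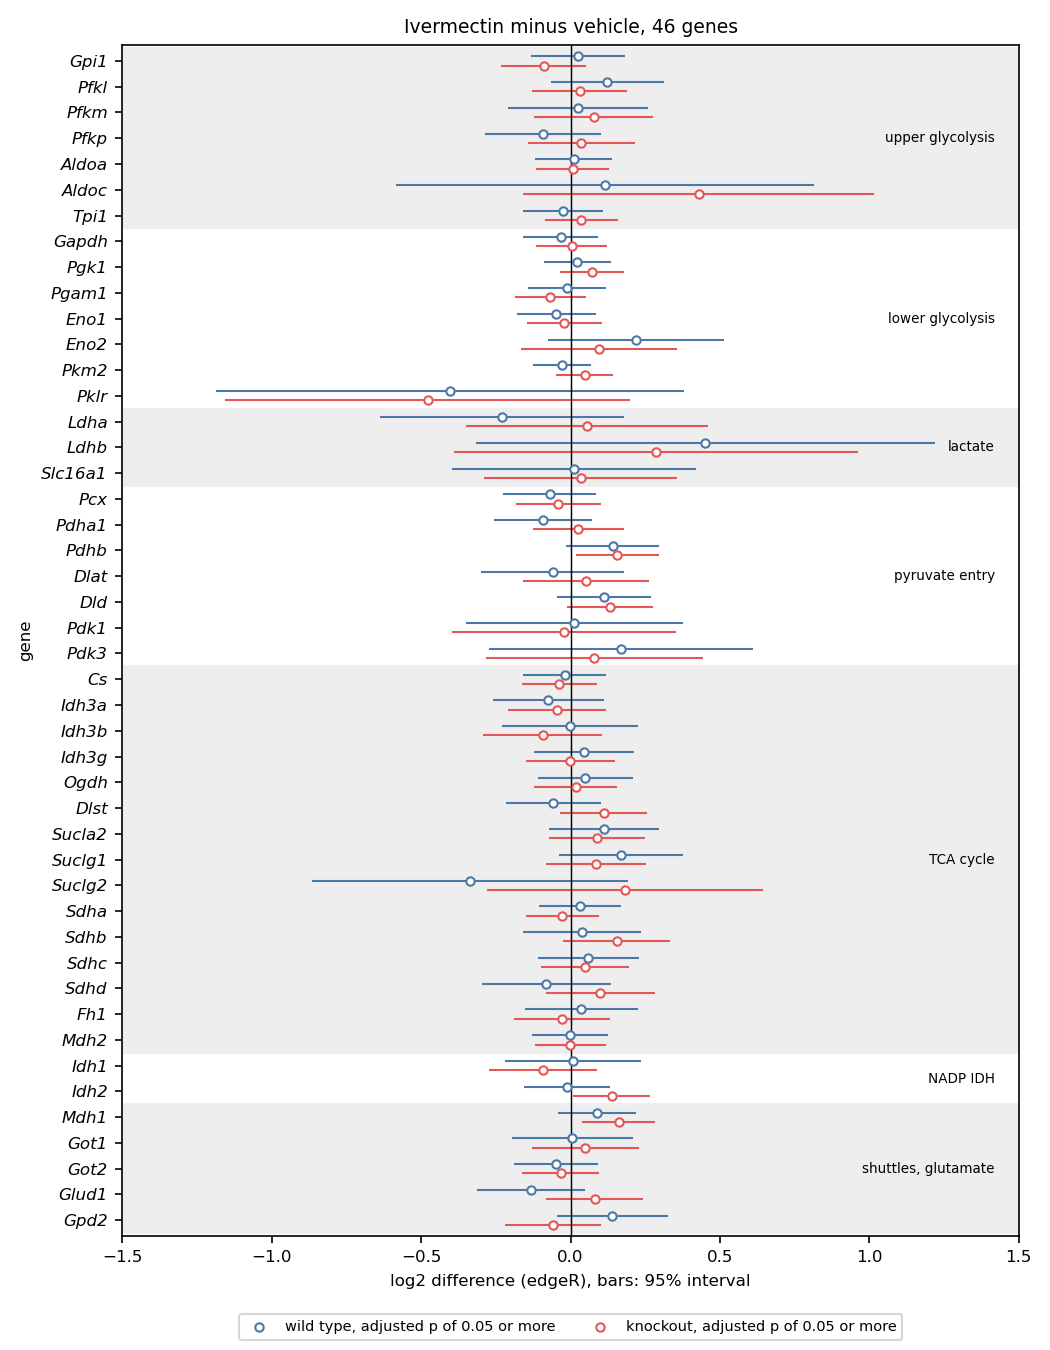
Log2 difference between ivermectin and vehicle libraries (x axis) for each of the 46 genes (y axis, by role) in wild-type (blue) and knockout-labelled (red) cells, with 95% intervals from edgeR. All points are open, as 0 of 46 passed in either line, and the widest bars belong to Pklr, Ldhb and Aldoc.

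For no member did the test of a difference in the ivermectin response between the lines pass. In the interaction test 0 of 46 passed, with 0 at an unadjusted p under 0.05, where 0.222% of all genes passed (0.213% positive and 0.00924% negative); DESeq2 called 0. The widest interaction values were 0.52 for Suclg2 and 0.31 for Aldoc, against -0.20 for the mitochondrial glycerol phosphate dehydrogenase Gpd2 and -0.16 for Ldhb. Each had an adjusted p of 1.

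The 2 lines differed from each other in about as large a share of these genes as of all genes. In vehicle, 11 of 46 members passed (23.9%), where 20.7% of all genes tested did; under ivermectin 13 passed (28.3%), where 27.8% did. The direction was uneven: in vehicle 9 were higher and 2 lower in knockout cells, where 9.9% of all genes were called higher and 10.8% lower, and under ivermectin 12 were higher and 1 lower, where the shares over all genes were 14% and 13.9%. The comparisons share no libraries. In both treatments 8 members passed in the same direction (17.4%), where 1629 of 10822 genes tested did (15.1%): Pfkl, Pkm2, Ogdh, Suclg1, Sdha, Fh1 and Idh1 higher, and Pdk1 lower. Of these, Pfkl and Fh1 were not called under ivermectin with DESeq2 (adjusted p = 0.0915 and 0.102) or with library totals in place of TMM factors (edgeR adjusted p = 0.0708 and 0.0673). Gpi1, Pgam1 and Ldha passed in vehicle alone and Tpi1, Sdhd, Mdh2, Idh2 and Mdh1 under ivermectin alone, and 30 members passed in neither; for none of the 8 genes that passed in 1 treatment was the difference between treatments past the threshold in the interaction test.

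The counts above use TMM scaling. Counting also members that did not pass, 30 of 46 were higher in knockout cells in vehicle (65.2%, against 49.9% of all genes tested) and 33 under ivermectin (71.7%, against 49.9%), with median log2 differences of 0.06 and 0.09. On log2(TPM + 1) values 22 and 20 were higher (47.8% and 43.5%, against 41.1% and 34.3% of all genes), as the median of all genes moved to -0.06 and -0.12. No member that passed changed sign on the TPM scale, but 2 of the 11 differences called in vehicle and 11 of the 13 called under ivermectin were over 1.5 times smaller there. Under ivermectin that of Tpi1 was 0.16 by TMM and 0.03 on log2(TPM + 1), that of Mdh2 0.16 and 0.04, and that of Pfkl 0.22 and 0.08, while those of Pkm2 were 0.28 and 0.15 and those of Pdk1 -0.67 and -0.70. The differences were small, and against a 1.2-fold change as the null only Idh1 in vehicle and Pdk1 under ivermectin passed.

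Some technical measures moved with the vehicle comparison. The hepatocyte list and Alb were highest in the wild-type vehicle libraries, which also had the lowest totals. Alb was higher in every wild-type vehicle library than in any other library, so as a covariate it overlaps with the vehicle comparison. Calls can be lost through that overlap alone, here and wherever this covariate is used below for that comparison. With Alb as a covariate the vehicle count fell to 1 of 46 (Idh1), where 3.72% of all genes passed, and the ivermectin count was 11. Of the 10 vehicle calls lost, the log2 differences of Fh1 (0.50), Ldha (-1.23), Pdk1 (-0.66), Gpi1 (0.28) and Pgam1 (0.24) were no smaller than without the covariate, and that of Sdha was 0.28. Those of Pfkl (0.19), Pkm2 (0.12), Ogdh (0.20) and Suclg1 (0.27) were smaller. With the hepatocyte genes left out before scaling, the counts were 11 and 13. Thinning all libraries to the smallest total gave 11 in vehicle and 4 under ivermectin (Pkm2, Ogdh, Sdha and Idh1). Without the fourth wild-type ivermectin library the ivermectin count was 11. The vehicle count fell to 7 without the first wild-type vehicle library, and the ivermectin count to 7 without the second wild-type ivermectin library.

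Calls near the threshold rested on single libraries, and the following edgeR adjusted p are from fits that left out 1 library. In vehicle, Gpi1 was not called without wild-type library 1 or 3 or knockout library 1 or 4 (adjusted p from 0.0554 to 0.114). Pgam1 was not called without wild-type library 2 or knockout library 1 (0.0657 and 0.0635), Pdk1 without wild-type library 1 or knockout library 3 (up to 0.0564), and Fh1 without wild-type library 1 or 2 or knockout library 4 (up to 0.0911). Under ivermectin, Pfkl was not called without wild-type library 1, 2 or 3 or knockout library 2 or 4 (up to 0.163), and Tpi1 without any 1 wild-type library, without knockout library 1, 2 or 3 or without the fourth wild-type vehicle library (up to 0.12). Sdhd was not called without wild-type library 2 or 3 or knockout library 1, 2 or 4 (up to 0.122), and Fh1 without wild-type library 1 or 2 or knockout library 1, 3 or 4 (up to 0.157). Mdh2 was not called without wild-type library 2 or 4 or knockout library 3 or 4 (up to 0.142), Idh2 without wild-type library 2 or knockout library 2 or 3 (up to 0.0913), and Mdh1 without wild-type library 1 or 3 or knockout library 1, 3 or 4 (up to 0.184). Pkm2, Ogdh, Suclg1, Sdha and Idh1 passed in both treatments in all 16 such fits, as did Pfkl in vehicle and Pdk1 under ivermectin.

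**Figure D3:**
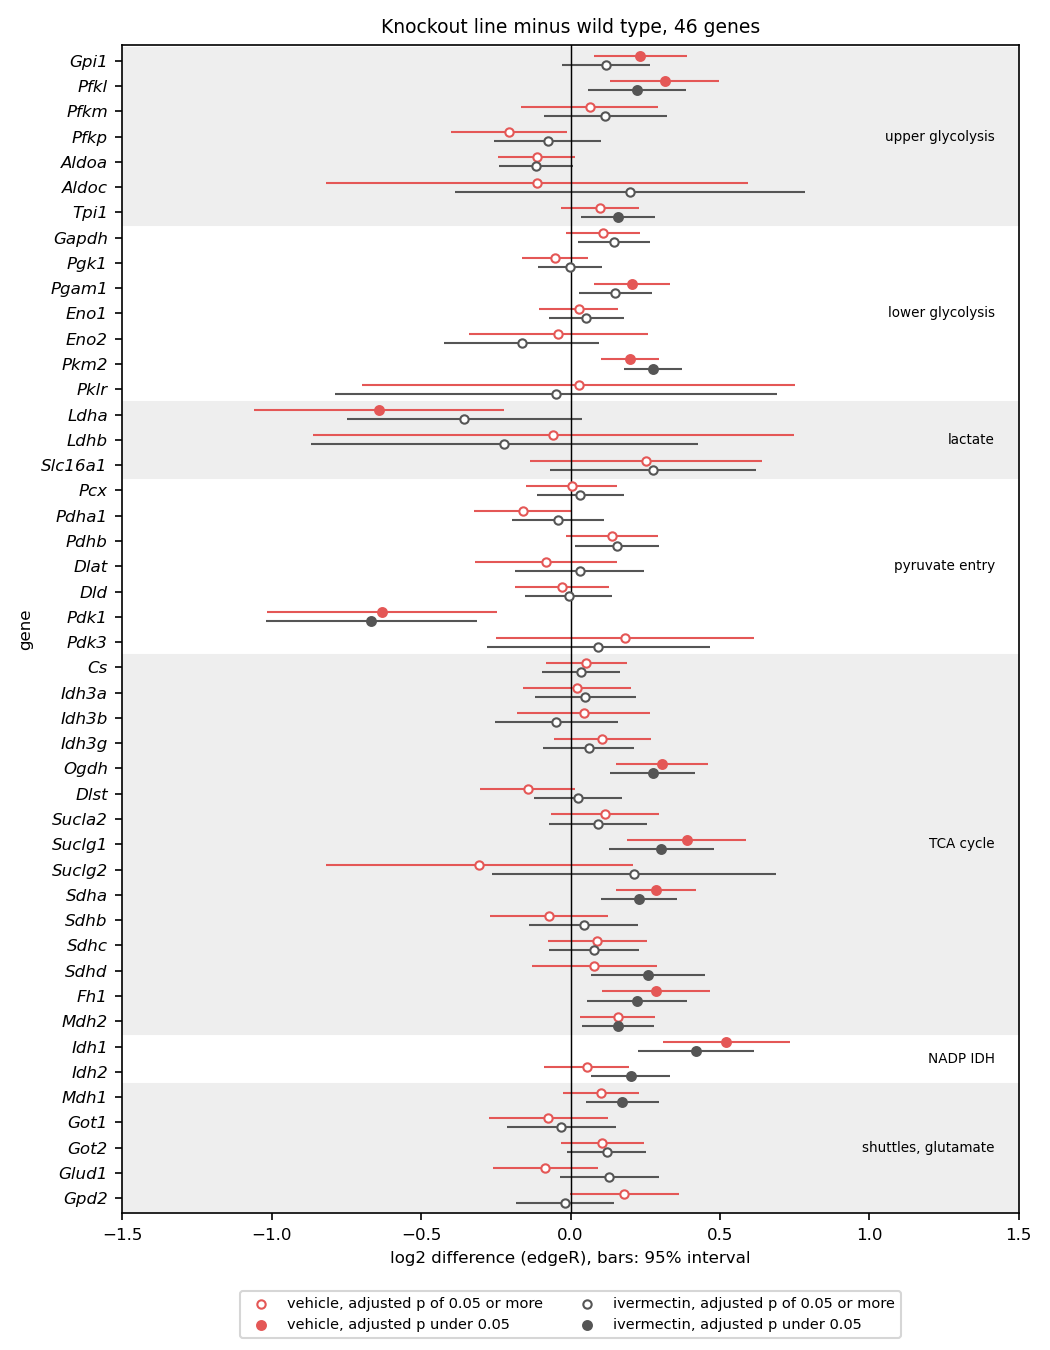
Log2 difference between knockout-labelled and wild-type libraries (x axis) for each of the 46 genes (y axis, by role) in vehicle and under ivermectin, with 95% intervals from edgeR and filled points for an adjusted p under 0.05. Idh1 lies farthest to the right and Pdk1 and Ldha farthest to the left.

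In upper glycolysis, 2 of 7 members passed in each treatment (28.6%, against 20.7% of all genes tested in vehicle and 27.8% under ivermectin), all higher in knockout cells. Pfkl was at 101, 105, 119 and 124 CPM in wild-type vehicle libraries and at 145, 144, 137 and 132 CPM in knockout vehicle libraries. The groups did not overlap, and the log2 difference was 0.31 (SE 0.09, edgeR adjusted p = 0.00995). Under ivermectin Pfkl was at 125, 122, 114 and 128 CPM in wild-type and 140, 162, 125 and 142 CPM in knockout libraries, a log2 difference of 0.22 (adjusted p = 0.0376) with 1 knockout library inside the wild-type range. The other phosphofructokinase genes did not pass: Pfkm had log2 differences of 0.06 and 0.12, and Pfkp -0.21 (adjusted p = 0.124) and -0.08. Gpi1, which interconverts glucose and fructose 6-phosphate, passed in vehicle (0.23, edgeR adjusted p = 0.0242) with overlapping groups, from 197 to 266 CPM in wild-type and 258 to 290 CPM in knockout libraries. Triose phosphate isomerase, Tpi1, passed under ivermectin at 0.16 with an adjusted p of 0.0488, the nearest to the threshold of any call, and was not called with DESeq2 (adjusted p = 0.0818) or with library totals (edgeR adjusted p = 0.101). Aldoa had log2 differences of -0.11 and -0.12 and Aldoc of -0.11 and 0.20, none of which passed.

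In lower glycolysis 2 of 7 members passed in vehicle (28.6%, against 20.7% of all genes) and 1 under ivermectin (14.3%, against 27.8%), all higher in knockout cells. Pkm2, which passed in both, is the M-type pyruvate kinase gene that makes pyruvate and ATP from phosphoenolpyruvate. It was at 1227, 1238, 1249 and 1240 CPM in wild-type vehicle libraries and at 1426, 1416, 1396 and 1447 CPM in knockout vehicle libraries. Under ivermectin it was at 1150, 1212, 1260 and 1235 CPM in wild-type and 1424, 1560, 1493 and 1400 CPM in knockout libraries. No knockout library overlapped a wild-type one in either treatment. The log2 differences were 0.20 (SE 0.05, edgeR adjusted p = 0.00238) and 0.28 (SE 0.05, adjusted p = 3.23e-05). Pgam1, phosphoglycerate mutase, passed in vehicle at 0.20 (adjusted p = 0.0166), with 310 to 340 CPM in wild-type and 358 to 397 CPM in knockout libraries. Under ivermectin its log2 difference was 0.15 and its adjusted p 0.0596, again without overlap. Gapdh (0.11 and 0.15), Pgk1 (-0.05 and -0.0032), Eno1 (0.03 and 0.05), Eno2 (-0.04 and -0.16) and Pklr (0.03 and -0.05) did not pass in either treatment.

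Ldha was lower in knockout than in wild-type vehicle libraries. It was at 83.2, 51.8, 69.4 and 56.7 CPM in wild-type vehicle and at 43.0, 49.6, 38.4 and 34.4 CPM in knockout vehicle libraries. The groups did not overlap, although the lowest wild-type and highest knockout library lay close together, and the log2 difference was -0.64 (SE 0.21, 95% interval -1.06 to -0.22, edgeR adjusted p = 0.0234). The call held in 12 of 16 fits that left out 1 library; it was lost without wild-type vehicle library 1 (adjusted p = 0.117) or 3 (0.0682), or knockout vehicle library 3 (0.0599) or 4 (0.0755). DESeq2 gave an adjusted p of 0.12, and with Alb as a covariate the log2 difference was -1.23 with an adjusted p of 0.0868.

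Under ivermectin the call for Ldha depended on 1 library and on the filter. Wild-type ivermectin libraries had 61.0, 55.9, 53.0 and 48.2 CPM, and knockout ivermectin libraries 34.3, 77.7, 26.8 and 31.1 CPM. The second knockout library was the highest of the 8, while the other 3 were all below every wild-type library. Slc16a3 was also highest in that library, at 27.99 CPM against 9.70 to 11.8 CPM in the other 3 of its group, and passed in neither treatment between the lines (edgeR adjusted p = 0.175 and 0.356). With all libraries the log2 difference was -0.36 (adjusted p = 0.176); without that library it was -0.82 (edgeR adjusted p = 0.000106). With all libraries and no filter on low counts it was -0.34 and passed (edgeR adjusted p = 0.0404).

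The other genes of lactate handling did not pass. Ldhb, the isozyme of oxidative tissues, had log2 differences of -0.06 and -0.22 on 4 to 17 counts a library. Slc16a1 was at 21.4, 18.6, 11.8 and 20.4 CPM in wild-type vehicle libraries and 22.1, 19.6, 22.4 and 22.2 CPM in knockout vehicle libraries. Its groups overlapped, and its log2 differences were 0.25 (95% interval -0.14 to 0.64, edgeR adjusted p = 0.399) and 0.27 (-0.07 to 0.62, adjusted p = 0.238). A difference of that size was not resolved on 11 to 48 counts a library.

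Pcx did not pass between the lines in either treatment, and its intervals were narrow. Wild-type libraries had 205, 228, 239 and 213 CPM in vehicle and 238, 194, 200 and 209 CPM under ivermectin. Knockout libraries had 229, 239, 210 and 209 CPM in vehicle and 213, 220, 220 and 210 CPM under ivermectin. All 4 groups overlapped. The log2 differences between the lines were 0.0035 (95% interval -0.15 to 0.16, edgeR adjusted p = 0.983) in vehicle and 0.03 (-0.11 to 0.18, adjusted p = 0.775) under ivermectin.

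Of the genes that admit pyruvate to the mitochondrial pathways, 1 of 7 passed in each treatment (14.3%, below the 20.7% and 27.8% of all genes tested). This was Pdk1, a kinase that phosphorylates and inactivates pyruvate dehydrogenase, and it was lower in knockout cells. It was at 36.0, 31.3, 28.8 and 30.6 CPM in wild-type vehicle libraries and at 20.3, 26.6, 16.5 and 18.01 CPM in knockout vehicle libraries, with no overlap. The log2 difference was -0.63 (SE 0.19, edgeR adjusted p = 0.0147). Under ivermectin the libraries had 37.0, 26.9, 34.5 and 28.3 CPM in wild-type and 16.6, 21.1, 27.4 and 15.5 CPM in knockout cells. Here the third knockout library exceeded the lowest wild-type one, and the log2 difference was -0.67 (SE 0.17, adjusted p = 0.00373). With all libraries thinned to the smallest total it was -0.43 and did not pass (adjusted p = 0.18). Among the pyruvate dehydrogenase kinases, Pdk1 held 29.9% and 31.3% of TPM in wild-type vehicle and ivermectin libraries and 20.6% and 19.0% in knockout libraries. Pdk3, the most abundant kinase at 52.6%, 59.1%, 63.4% and 62.2%, had log2 differences of 0.18 and 0.09 that did not pass. The genes of the dehydrogenase complex itself did not pass either: Pdha1 had -0.16 and -0.04, Pdhb 0.14 and 0.15, Dlat -0.08 and 0.03, and Dld -0.03 and -0.01.

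**Figure D4:**
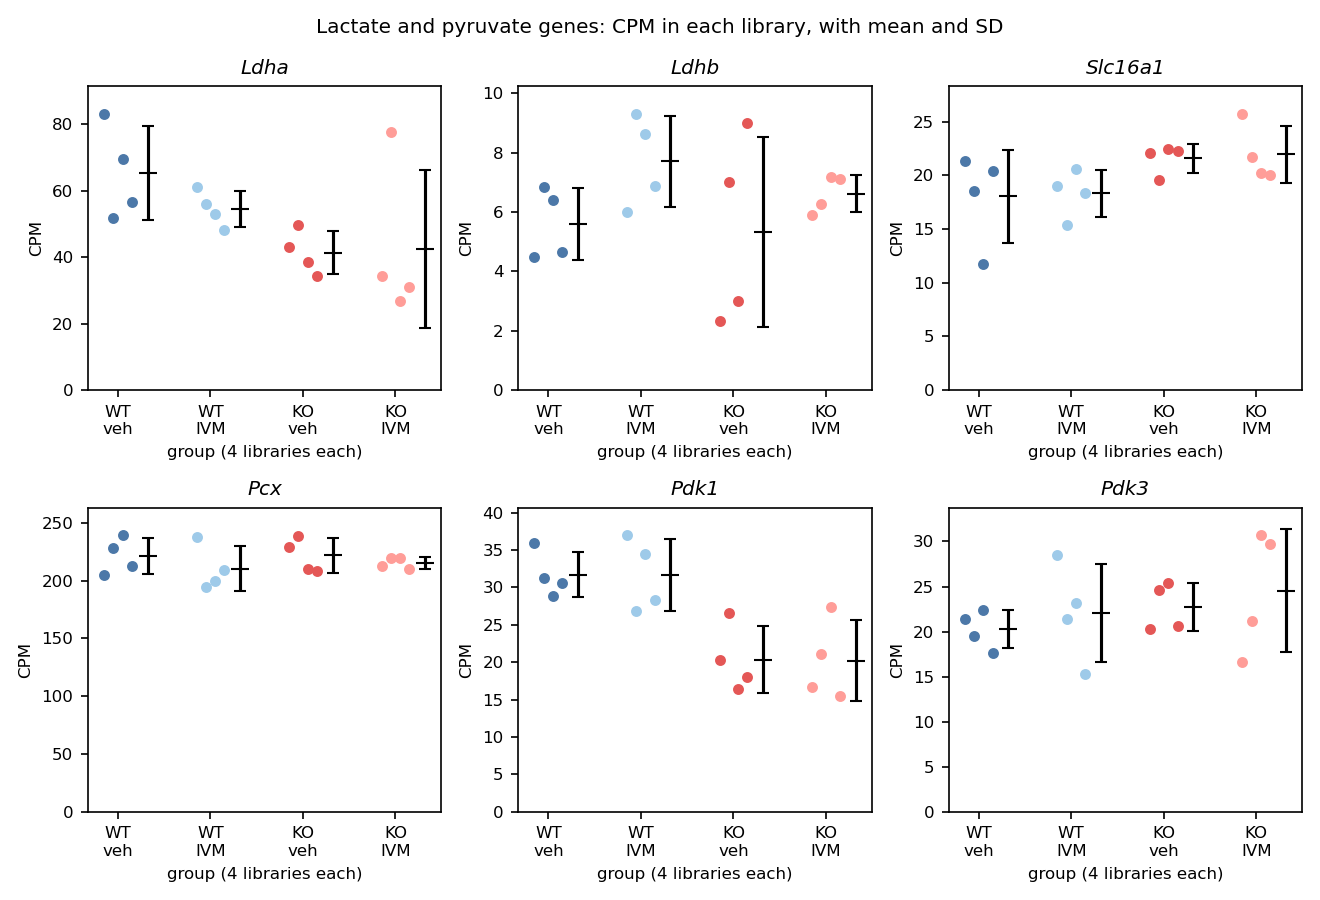
CPM of 6 lactate and pyruvate genes in each of the 16 libraries (points; y axes start at 0), with the mean and SD of each group of 4. Ldha and Pdk1 are lower in the knockout vehicle libraries, 1 knockout ivermectin library stands at 77.7 CPM for Ldha, and Pcx and Slc16a1 overlap between the lines.

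In the TCA cycle, 4 of 15 genes passed in vehicle (26.7%, against 20.7% of all genes tested) and 6 under ivermectin (40%, against 27.8%). With Alb as a covariate none of the 4 vehicle calls was kept. Under ivermectin Fh1, Sdhd and Mdh2 were not called with DESeq2 (adjusted p = 0.102, 0.0889 and 0.0666) or with library totals, and after thinning these and Suclg1 were not. All were higher in knockout cells, the direction in which 9.9% and 14% of all genes were called. Suclg1, the shared subunit of both succinyl-CoA ligases, was at 74.2, 78.2, 77.99 and 67.8 CPM in wild-type vehicle and 101, 87.3, 103 and 98.5 CPM in knockout vehicle libraries. Under ivermectin it was at 76.5, 86.6, 92.1 and 80.4 CPM in wild-type and 98.1, 103, 105 and 108 CPM in knockout libraries. Neither pair of groups overlapped, with log2 differences of 0.39 (SE 0.10, edgeR adjusted p = 0.00353) and 0.30 (SE 0.09, adjusted p = 0.00749). After thinning to the smallest total the ivermectin difference was 0.23 and did not pass (adjusted p = 0.145). Its partner subunits did not pass: Sucla2 had 0.12 and 0.09, and Suclg2 -0.31 and 0.21.

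Ogdh, the E1 subunit of 2-oxoglutarate dehydrogenase, was at 185, 210, 230 and 236 CPM in wild-type vehicle and 256, 289, 255 and 267 CPM in knockout vehicle libraries. Under ivermectin it was at 243, 231, 218 and 196 CPM in wild-type and at 270, 274, 266 and 271 CPM in knockout libraries. The groups did not overlap in either treatment, and the log2 differences were 0.31 (edgeR adjusted p = 0.00288) and 0.27 (adjusted p = 0.00347). Dlst, the E2 subunit of the same complex, had -0.14 and 0.02 and did not pass.

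Sdha, the flavoprotein of succinate dehydrogenase, was at 242 to 274 CPM in wild-type vehicle and 301 to 319 CPM in knockout vehicle libraries, and at 246 to 270 and 276 to 322 CPM under ivermectin. The groups were again separate, at log2 differences of 0.29 (edgeR adjusted p = 0.00138) and 0.23 (adjusted p = 0.00548). Of the other succinate dehydrogenase subunits, the membrane anchor Sdhd passed under ivermectin (0.26, adjusted p = 0.0353) and not in vehicle (0.08), while Sdhb (-0.07 and 0.04) and Sdhc (0.09 and 0.08) passed in neither. Fh1, fumarase, was at 109 to 126 CPM in wild-type vehicle and 132 to 162 CPM in knockout vehicle libraries, with log2 differences of 0.29 (adjusted p = 0.0189) and 0.22 (adjusted p = 0.0415). Mdh2 had 0.16 in both treatments and passed under ivermectin alone (adjusted p = 0.0436; vehicle 0.0667). Citrate synthase, Cs, which opens the cycle, and the NAD-linked isocitrate dehydrogenase genes Idh3a, Idh3b and Idh3g did not pass, with log2 differences between -0.05 and 0.11.

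The member farthest above wild type was Idh1, the cytosolic NADP-linked isocitrate dehydrogenase, which yields NADPH outside the TCA cycle. It was at 89.9, 98.8, 96.2 and 70.6 CPM in wild-type vehicle and 121, 111, 141 and 134 CPM in knockout vehicle libraries. Under ivermectin it was at 104, 80.6, 85.5 and 83.4 CPM in wild-type and at 122, 119, 122 and 113 CPM in knockout libraries. Every knockout library was above every wild-type library, and the log2 differences were 0.52 (SE 0.10, edgeR adjusted p = 0.000285) and 0.42 (SE 0.10, adjusted p = 0.00102). Idh1 also passed in vehicle with Alb as a covariate (0.76, adjusted p = 0.0266). Its mitochondrial counterpart Idh2 passed under ivermectin alone (0.20, adjusted p = 0.0192; vehicle 0.05), and the share of Idh1 in the TPM of both was 20.9%, 21.0%, 26.7% and 23.9% in the 4 groups.

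**Figure D5:**
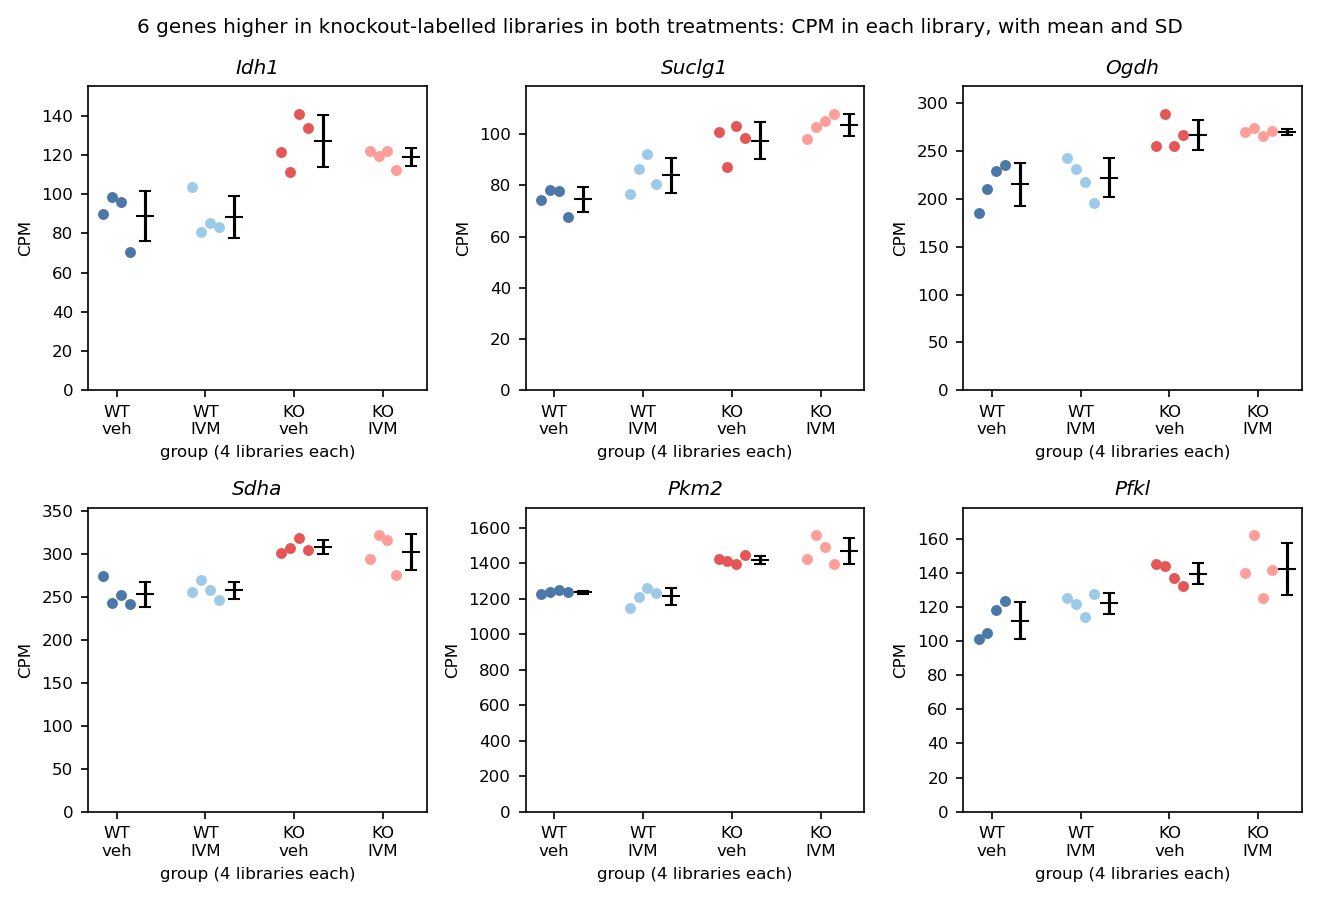
CPM of 6 of the 7 genes that were higher in knockout-labelled libraries in both treatments, in each of the 16 libraries (points; y axes start at 0), with the mean and SD of each group of 4. Idh1 has means of 88.9 and 127 CPM in wild-type and knockout vehicle libraries, and for Pfkl 1 knockout ivermectin library lies within the wild-type range.

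Of the 5 shuttle and glutamate genes, 0 passed in vehicle and 1 under ivermectin (20%), where 20.7% and 27.8% of all genes tested did. Mdh1, the cytosolic arm of the malate-aspartate shuttle, passed under ivermectin (0.17, edgeR adjusted p = 0.0302) and had 0.10 in vehicle. The aminotransferases Got1 (-0.07 and -0.03) and Got2 (0.10 and 0.12) and glutamate dehydrogenase Glud1 (-0.08 and 0.13) did not pass. Gpd2 was at 95.8 to 109 CPM in wild-type vehicle and 111 to 129 CPM in knockout vehicle libraries; the groups did not overlap, but the adjusted p was 0.156 for a log2 difference of 0.18, and under ivermectin the difference was -0.02.

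Genes of neighbouring steps, from a list of 64 outside the set of which 58 were in the table and 40 could be tested, also differed between the lines. In vehicle 4 were higher and 6 lower in knockout cells (25%), and under ivermectin 9 were higher and 6 lower (37.5%), against the 20.7% and 27.8% of all genes. Ogdhl, an Ogdh-like subunit gene, averaged 178 ± 21.3 CPM (SD, n = 4) in wild-type and 269 ± 12.9 CPM in knockout vehicle libraries, a log2 difference of 0.59 (edgeR adjusted p = 1.04e-06). Slc25a13, a mitochondrial aspartate-glutamate carrier of the malate-aspartate shuttle, averaged 6.89 ± 2.67 and 16.9 ± 4.19 CPM (1.29, adjusted p = 0.00238). Slc25a12, which codes for the same carrier step and is named here after its values were seen, averaged 67.5 and 68.6 CPM (0.03, adjusted p = 0.894). Lower in knockout vehicle libraries were Gpd1, the cytosolic partner of Gpd2 (9.38 and 1.28 CPM; -2.77, adjusted p = 3.67e-05) and Pck1 (21.0 and 2.49 CPM; -3.01, adjusted p = 3.83e-06). With Alb as a covariate neither Slc25a13 (0.94, adjusted p = 0.453) nor Gpd1 (-1.56, adjusted p = 0.475) passed. Pck1, the gluconeogenic phosphoenolpyruvate carboxykinase, is also made in liver. It passed as lower under ivermectin in wild-type cells (-2.83), where the hepatocyte list was also lower than in vehicle, and with Alb as a covariate its vehicle difference between the lines turned to 0.80 and did not pass. In these bulk libraries fewer cells of a type and less RNA per cell cannot be told apart.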

How the data were processed

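Poly(A) RNA from 16 mouse libraries was sequenced in pairs. Reads were aligned and quantified by the authors with STAR 2.7.2b and RSEM 1.3.3 on build mm10, per the submitters' processing notes, which also name DESeq2 1.32.0. The deposited RSEM tables hold expected counts and TPM per gene. A deposited table of whole counts equalled the expected counts rounded down in 100% of values. Expected counts were rounded and tested with edgeR 4.0.16 (R 4.3.3): TMM factors, filterByExpr (minimum count 10, total 15), a quasi-likelihood fit of all 16 libraries with a mean for each group, and a threshold of 0.05 on p-values adjusted by Benjamini-Hochberg across 10822 genes. CPM use TMM factors; TPM served for levels between genes. Intervals are 95% intervals of the fit. Named genes were every member that passed in any comparison, Ldha, Slc16a1 and Pcx, the 2 largest differences each way where none passed, and the 6 largest among listed neighbouring genes that passed in vehicle, of which some are not reported here. The members and gene lists were chosen with earlier results of these data known. The fit was tested on simulated counts. Alternatives included DESeq2 1.42.0, other scalings and filters, thinning, a replicate block and leaving out each library. Promoter bases come from RefSeq, assembly GRCm38.p6, where 44 of 46 genes matched, Pkm2 through its synonym Pkm. Human single-cell tables were not used here.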

Additional observations from a re-analysis of the deposited data

Results flagged for a closer look

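Among 184 groups of 4 values (46 genes in 4 groups), 11 had 1 library far from the other 3, its gap to the nearest, as a share of the group's range, above Dixon's critical value. Chance gives about 1 in 20, or 9.2. Ldha stood out most in size: the second knockout ivermectin library had 77.68 CPM where the others had 26.78 to 34.31. The same library was lowest for Mdh1, at 608.9 CPM against 659.2 to 662.6.

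In wild-type ivermectin cells, library 1 was highest for Pfkm (70.47 CPM; others 58.64 to 60.47) and lowest for Pdhb (204.9 CPM; others 236 to 239.6), and library 4, which stood apart from its group over all genes, was highest for Sdhb (215.1 CPM; others 164.4 to 171). In knockout vehicle cells, library 2 was lowest for Slc16a1 (19.56 CPM; others 22.07 to 22.45) and for Idh3g (133.9 CPM; others 151.7 to 154.2), and library 3 was highest for Gpd2 (129.2 CPM; others 110.7 to 113.3). In knockout ivermectin cells, library 1 was highest for Dld (200 CPM; others 175.1 to 179.2), library 3 lowest for Dlat (51.61 CPM; others 61.69 to 63.26) and library 4 lowest for Got1 (78.92 CPM; others 94.82 to 97.04).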

How the results depend on the processing

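Under 13 alternatives and 16 fits that each left out 1 library, the counts of members called for ivermectin in either line and for the interaction were 0 throughout. Between the lines in vehicle, 11 members passed; this became 1 with Alb as a covariate, 1 against a 1.2-fold change, and 7 to 12 with 1 library left out. Under ivermectin, 13 passed; this became 8 with DESeq2, 8 with library totals in place of TMM factors (an alternative chosen after seeing the data), 4 after thinning, 1 against a 1.2-fold change, and 7 to 15 with 1 library left out. With the replicate block the counts were 11 and 12, and 0 elsewhere. The labels do not say that replicate numbers mark shared batches. Same-numbered libraries had correlations of deviations of -0.057 to 0.145 over 24 pairs, others -0.127 to 0.106, and 9 of 16 libraries were most like one of their own number, a hint from the data and not the design. The cause of each change was not tested.

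Of 1275 values for single genes under an alternative, 16 changed sign, none in a member that passed. Pcx, whose difference in vehicle was 0.0035, became -0.0154 with library totals, -0.0080 at a mean of at least 50 counts, -0.0034 with Alb as a covariate, -7.56e-06 after thinning, -0.0022 with 8 libraries only, and -0.035 to 0.048 with 1 library left out; under ivermectin it became -0.061 after thinning, and -0.0086 to 0.11 with 1 library left out. With Alb as a covariate, Ldhb became -0.074 for ivermectin in wild-type cells and 0.49 for the interaction (-0.38 to 0.19 with 1 library left out), and Pck1 became 0.80 between the lines in vehicle. Depth limits the members with few counts: 3 counts correspond to 1.497 to 3.37 CPM, and Pklr, Ldhb and Aldoc lay between 2.14 and 12.1 CPM.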

Other observations

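Ldha belongs to a group of genes that normal beta cells keep silent. Of 14 such genes on the list used here, 8 could be tested; in vehicle 0 were higher and 4 lower in knockout cells (50%, against 20.7% of all genes tested), and under ivermectin 0 were higher and 2 lower (25%, against 27.8%). The list was chosen with the fall of Ldha known; without Ldha 3 of 7 (42.9%) and 2 of 7 (28.6%) passed, all lower. Beside Ldha these were Igfbp4, an insulin-like growth factor binding protein (46.7 and 12.9 CPM in wild-type and knockout vehicle libraries; edgeR log2 difference -1.84), Oat, ornithine aminotransferase (222 and 174 CPM; -0.35), and Mgst1, a microsomal glutathione transferase (20.6 and 1.48 CPM; -3.73). Mgst1 also passed as lower under ivermectin in wild-type cells (-2.53), with 20.6 CPM in vehicle and 3.31 CPM in ivermectin libraries; the hepatocyte list was highest in the same wild-type vehicle libraries, and its part in that difference was not tested.

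Ldha and Pdk1 are also known targets of hypoxia-inducible factor, as are other members of the set, glycolysis genes among them. Of the glycolysis members, Gpi1 (0.23), Pfkl (0.31), Pgam1 (0.20) and Pkm2 (0.20) were called higher in knockout cells in vehicle. Under ivermectin Pfkl (0.22), Tpi1 (0.16) and Pkm2 (0.28) were, and none was called lower in either treatment. The targets counted next lie outside the 46 genes and give no count within the set. Of 24 other listed targets, 17 could be tested; in vehicle 3 were higher and 4 lower in knockout cells (41.2%, against 20.7% of all genes tested), and under ivermectin 2 were higher and 3 lower (29.4%, against 27.8%). Counting also those that did not pass, 12 of the 17 were lower in knockout cells in vehicle (median log2 difference -0.13), where 50.1% of all genes tested were, and 9 of the 17 under ivermectin (median -0.05), where 50.1% were. On log2(TPM + 1) values 13 and 11 were lower, where 58.9% and 65.7% of all genes were. Lower in vehicle were the growth factor gene Vegfa (198 and 142 CPM; -0.48), the oxygen sensor Egln3 (20.1 and 7.48 CPM; -1.42), Ddit4 (-0.65) and the histone demethylase Kdm3a (-0.47). Higher were P4ha2, a collagen prolyl hydroxylase subunit (30.0 and 87.9 CPM; 1.56), the disulfide oxidase Ero1l (0.41) and Ndrg1 (0.34).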
